A study of Mus musculus with 4 samples.

Results

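The CHD (chromodomain helicase DNA-binding) remodellers and Mbd3 form a set of 9 genes, which were picked by symbol from the 16861 genes listed in every library. The set holds 8 Chd genes (Chd1, Chd2, Chd3, Chd4, Chd6, Chd7, Chd8 and Chd9) and Mbd3. All 9 were found in all 4 libraries, and the rule names symbols and no values. The study asked how chromatin and transcripts of mouse oocytes change during the configuration transition, in which chromatin gathers around the nucleolus. Polyadenylated RNA was measured by Smart-seq2 in 2 libraries of NSN (non-surrounded nucleolus) and 2 libraries of SN (surrounded nucleolus) oocytes. The labels' protocol speaks of 3 samples per group, of which 2 were analysed here. Both groups were germinal vesicle (GV) oocytes of 3-week-old C57BL/6J females, with no engineered allele named, and configuration is the difference that the labels give between them. The oocytes came from antral follicles, were freed of cumulus cells by pipetting and were sorted by Hoechst staining in medium with milrinone, an inhibitor that holds oocytes at the GV stage. Each library pooled 15 oocytes, and the labels do not say whether the 2 libraries of a group came from different animals. The p-values therefore measure only the spread between these libraries, which may be technical.

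CHD proteins are ATPases of the Snf2 superfamily that slide, space or eject nucleosomes, and they carry a pair of chromodomains in front of the ATPase. Chd1 and Chd2 work with RNA polymerase II in elongating chromatin, Chd3 and Chd4 are alternative motors of the NuRD deacetylase complex, and Chd6 to Chd9 form a subfamily of their own. Mbd3 is not an ATPase. It is the methyl-CpG-binding-domain protein that links the deacetylase module of NuRD to its motor, in a place that Mbd2 can take instead. In the fully grown oocyte, transcription falls silent as the SN state is reached, and the egg relies on stored transcripts until the embryonic genome is active.

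The 8 Chd genes share an ATPase core, so the DEAH-box stretch of each is shown to let its likeness be seen. Each line holds 24 coding bases of GRCm39 from the canonical transcript of GENCODE vM39, and the capitals mark the 4 codons of the DEAH box, motif II of the ATPase.
Chd1, exon 14, chr17:15958777-15958800, + strand: ggtgttGATGAAGCGCATcgatta
Chd2, exon 16, chr7:73140361-73140384, - strand: ggagtaGATGAAGCCCATcggttg
Chd3, exon 16, chr11:69247782-69247805, - strand: gtggtgGATGAGGCTCATcgactc
Chd4, exon 17, chr6:125085718-125085741, + strand: attgtgGATGAAGCCCATcggctg
Chd6, exon 13, chr2:160859994-160860017, - strand: ataattGATGAGGCCCACagactg
Chd7, exon 13, chr4:8828337-8828360, + strand: gtcatcGATGAAGCCCACaggctg
Chd8, exon 14, chr14:52457102-52457125, - strand: atcattGATGAAGCCCATaggctg
Chd9, exon 14, chr8:91721193-91721216, + strand: attattGATGAAGCACACaggtta
Across the 24 bases, Chd8 differed from Chd4 at 4 positions, Chd2 at 5, Chd3 and Chd7 at 6, and Chd1, Chd6 and Chd9 at 7. The likeness is local. Of all exonic stretches of 50 bases of the members, 0 were shared between any pair of them, so none of these stretches belongs to more than 1 member. Overlaps with other genes can still affect the counts, since the authors counted without strand. In the annotation, 15.4% of the exonic bases of Chd2 also lie in other genes (Chaserr and Gm44686), as do 10.6% of those of Mbd3 (Gm30823), 7.22% of those of Chd8, 2.45% of those of Chd4 and 1.06% of those of Chd9. The share was 0% for Chd1, Chd3, Chd6 and Chd7.

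The deposited values are FPKM, the read pairs of a gene relative to its length and to the total of the library. Levels of different genes therefore depend on the lengths used. Those recovered from the values were 1870 bases for Mbd3, 12056 for Chd9 and 7261 for Chd3. GENCODE vM39, a later release than that of the authors, has 6478, 23577 and 8474 exonic bases for these genes. Ranks and shares between genes hold for the recovered lengths only. The libraries held 17069772 to 17998361 read pairs, recovered from the values themselves. SN was compared with NSN by limma on log2(FPKM + 0.5), in 11672 genes whose mean FPKM reached 0.5. Calls required a fold of 1.2 or more and, after Benjamini-Hochberg adjustment, a p below 0.05. The log2 scale with a pseudocount understates changes of genes with low FPKM. By this rule 7.93% of the tested genes were called, 5.95% as higher and 1.98% as lower in SN, and the median log2 fold change of all tested genes was 0.14. Values of FPKM are shares of a library, so a change in RNA per oocyte cannot be read from them, and in pooled oocytes fewer cells with a transcript cannot be told apart from less transcript per cell. Both SN libraries lay above both NSN libraries for 44.8% of the tested genes and below them for 17.8%. All 12 oocyte markers were listed, with a summed FPKM of 21439.5 to 22881.7 in NSN and 14615.4 to 15363.6 in SN libraries, and 8 of them were called lower. Of 16 granulosa and cumulus markers 11 were listed. Their summed FPKM was 332 to 362 in NSN and 325 to 367 in SN libraries, nearly all of it from Serpine2. Cyp19a1, the aromatase of granulosa cells, had 5.81 and 8.06 FPKM in NSN and 8.38 and 8.22 in SN. Nr5a2 and Kitl had 1.15 to 1.94, and Fshr, which did not pass the filter on low values, 0.166 to 0.869. Inha had 0.389 and 1.44 FPKM in NSN and 0.437 and 0.640 in SN, which overlapped. Its log2 fold change of -0.35 did not pass (limma adjusted p = 0.545). Of 10 blood, immune, endothelial and stromal markers, Cd68, Pecam1 and Dcn were listed, with a summed FPKM of 5.91 to 7.34 in NSN and 7.71 to 7.88 in SN libraries. Pecam1 was the largest part, at 4.49 and 4.96 FPKM in NSN and 4.51 and 4.56 in SN, which overlapped (log2 fold change -0.05, limma adjusted p = 0.803). Dcn, a stromal marker, had 0.829 and 1.76 FPKM in NSN and 2.72 and 2.18 in SN. Its log2 fold change of 0.76 did not pass (limma adjusted p = 0.112), nor did that of Cd68 (0.23, adjusted p = 0.450). The part of such transcripts in the members' values was not tested.

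Chd4 was the most abundant member in every library, and Chd3 the least. In NSN oocytes Chd4 led at a mean of 6.89 FPKM, followed by Chd7 at 3.67, Chd6 at 3.28, Chd9 at 3.22, Mbd3 at 2.03, Chd8 at 1.56, Chd1 at 0.714, Chd2 at 0.196 and Chd3 at 0.0818 FPKM. The NSN values of Chd6 overlapped with those of Chd7 and of Chd9, so its place between them lies within the replicate spread, while Chd7 was above Chd9 in both libraries. All other neighbours in NSN were apart. In SN oocytes the order was Chd4 at 10.3 FPKM, Chd6 at 4.73, Chd7 at 4.58, Mbd3 at 3.22, Chd9 at 3.00, Chd8 at 2.29, Chd1 at 1.06, Chd2 at 0.229 and Chd3 at 0.0909. Here Chd6 overlapped with Chd7, and Mbd3 with Chd9. Among all listed genes Chd4 stood above 74.85%, Chd7, Chd6, Chd9, Mbd3 and Chd8 above 52.42% to 64.06%, Chd1 above 39.81%, Chd2 above 17.22% and Chd3 above 7.004%.

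**Figure D1:**
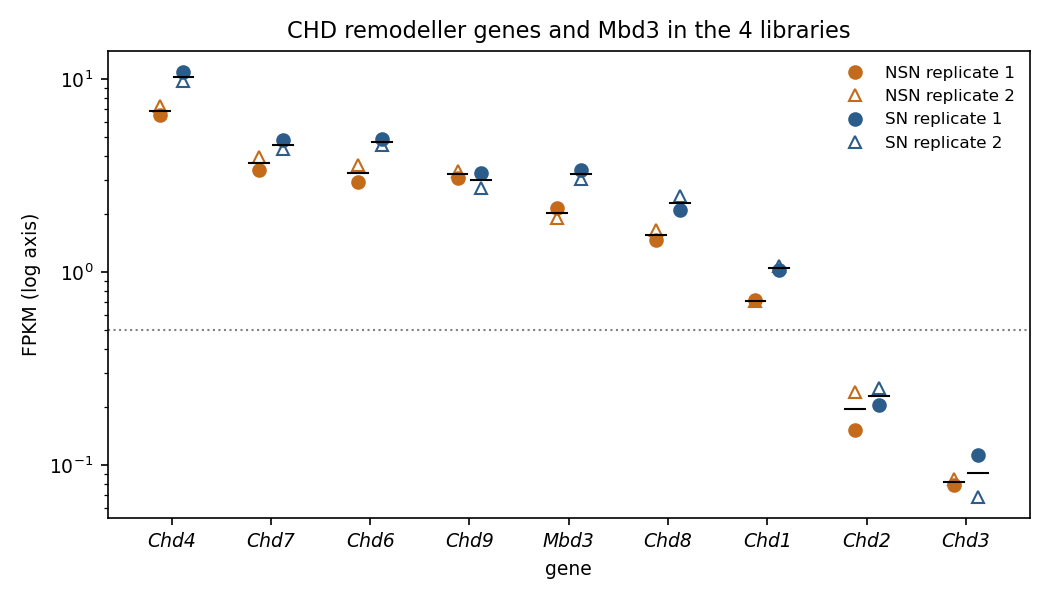
FPKM of the 9 members on a log axis, with 1 point per library (2 NSN, 2 SN), genes ordered by mean level. Chd4 lies highest at 6.54 to 10.9 FPKM and Chd3 lowest at 0.0689 to 0.113, and the SN points of 6 genes lie above both NSN points.

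Of the 9 members, 7 passed the filter on low values, and Chd2 and Chd3 did not. Both SN libraries lay above both NSN libraries for 6 of the 7 (Chd1, Chd4, Chd6, Chd7, Chd8 and Mbd3), against 44.8% of all tested genes. All 7 exceeded 0.5 FPKM in every library. limma called 1 of the 7 members, Chd4, as higher in SN, beside 5.95% of all tested genes, and called no member lower. Chd1, Chd6, Chd7, Chd8, Chd9 and Mbd3 did not pass. By voom on recovered read pairs, which called 15.2% of its tested genes as higher, 4 members were (Chd1, Chd4, Chd6 and Chd8). The 7 members had a median log2 fold change of 0.44. The shift of 0.14 in all genes is part of that figure. After scaling each library to the same median, the 7 members had a median of 0.32. The same 6 genes remained higher in both SN libraries (29.4% of all tested genes then did). limma then called 2.2% of the tested genes, with no member among them. Voom with median scaling called Chd4 and Chd6 as higher, beside 753 of its 11659 tested genes.

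**Figure D2:**
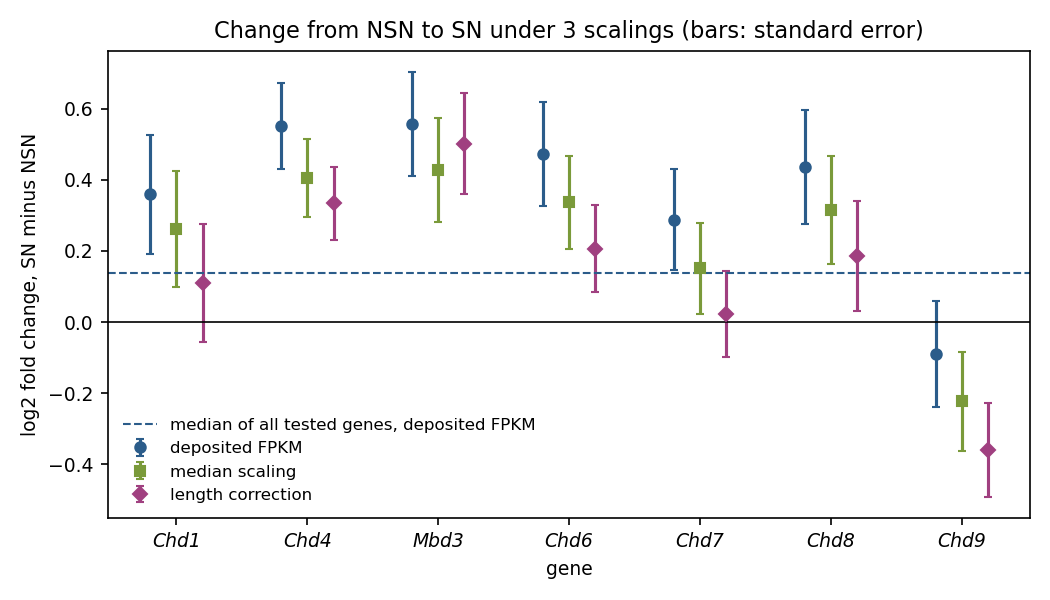
The log2 fold change of SN against NSN (y axis, with its standard error) of the 7 tested members on the deposited FPKM, after median scaling and after length correction, with the median of all tested genes on the deposited FPKM, 0.14, as a dashed line. On the deposited FPKM Chd4 at 0.55 is the 1 called gene, and Chd9 at -0.09 is the 1 below the dashed line.

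Chd4, also named Mi-2β, is the motor of most NuRD complexes and of the ChAHP complex with Adnp. The gene (ENSMUSG00000063870.14) lies on chr6:125072944-125107554, + strand, of GRCm39. Its FPKM was 6.54 and 7.24 in NSN and 10.9 and 9.75 in SN libraries. Those values rest on 765, 871, 1252 and 1179 read pairs. Both SN values lay above both NSN values, and the means were 6.89 ± 0.493 (SD, n = 2) and 10.3 ± 0.825 (SD, n = 2). On the log2 scale the difference was 0.55 (standard error 0.12, limma adjusted p = 0.0457), above that of 91.21% of the tested genes and 0.41 above the median of all genes. The call sits near the threshold and was made in 6 of 14 other fits on all 4 libraries. By limma it was lost after median scaling (log2 fold change 0.41, adjusted p = 0.0818) and after a correction for gene length (0.33, adjusted p = 0.111). It was kept by voom on the recovered read pairs (0.58, adjusted p = 0.00349), and by voom with median scaling (0.43, adjusted p = 0.0186). Leaving out NSN replicate 1, SN replicate 1 or SN replicate 2 also ended it, with limma adjusted p of 0.140, 0.154 and 0.110, and it held without NSN replicate 2 (0.0308).

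Chd3 encodes the other common NuRD motor (ENSMUSG00000018474.20, chr11:69234088-69260252, - strand). It was close to the limit of these libraries, with 10 and 11 read pairs in NSN and 14 and 9 in SN. Its FPKM was 0.0791 and 0.0846 in NSN, and 0.113 and 0.0689 in SN libraries. The groups overlapped. The exact Poisson 95% intervals, which cover counting error only, ran from 0.0379 to 0.145 and 0.0422 to 0.151 FPKM in NSN and from 0.0618 to 0.190 and 0.0315 to 0.131 FPKM in SN. A difference was not detectable at this depth. Within a library the FPKM of Chd4 was 82.7 and 85.6 times that of Chd3 in NSN and 96.7 and 142 times in SN. All 4 counting intervals of this ratio overlapped (44.7 to 173, 47.6 to 172, 57.4 to 177 and 74.3 to 310). Another NuRD-type motor, Chd5, known from neurons and testis, was also low, at 0.163 and 0.247 FPKM in NSN and 0.142 and 0.129 in SN, on 22 to 42 read pairs.

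Mbd3 (ENSMUSG00000035478.16, chr10:80225002-80235397, - strand) had 2.15 and 1.91 FPKM in NSN and 3.38 and 3.06 in SN libraries. The read pairs were fewer than for Chd4, at 70, 64, 108 and 103. SN lay above NSN without overlap, with means of 2.03 ± 0.169 (SD, n = 2) and 3.22 ± 0.228 (SD, n = 2), and the ratio of 1.59 was the largest of the 9 members. Its log2 fold change of 0.56 (standard error 0.15) missed the threshold, with a limma adjusted p of 0.0634, and it stayed between 0.49 and 0.63 with each library left out in turn. Mbd2, which takes the same place in NuRD and prefers methylated DNA, had 2.46 and 2.92 FPKM in NSN and 3.44 and 3.86 in SN (log2 fold change 0.38, limma adjusted p = 0.138). Mbd3 per Mbd2 was 0.873 and 0.655 in NSN and 0.982 and 0.793 in SN. The groups overlapped in this ratio, so a shift between the 2 alternative subunits was not seen beyond the replicate spread. Mbd3l2, a relative that lacks the methyl-CpG-binding domain, was read after the values of the members were seen. It was far more abundant per length, at 131 and 162 FPKM in NSN and 185 and 184 in SN libraries, above 97.58% of the listed genes (log2 fold change 0.34, limma adjusted p = 0.0948).

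Since Chd4 and Mbd3 belong to 1 complex and had the largest log2 fold changes of the members, the bases in front of their starts are shown. They come from the RefSeq promoter table (build GRCm38.p6) and were located in GRCm39 by exact match. Of the 2 Chd4 entries, the upstream one is given. The Mbd3 entry ends where the annotated gene begins. Capitals mark 3 motifs on either strand, the GC box GGGCGG, the CCAAT box and the TATA box TATAAA, none of which overlap here.
Chd4, chr6:125072694-125072943, + strand: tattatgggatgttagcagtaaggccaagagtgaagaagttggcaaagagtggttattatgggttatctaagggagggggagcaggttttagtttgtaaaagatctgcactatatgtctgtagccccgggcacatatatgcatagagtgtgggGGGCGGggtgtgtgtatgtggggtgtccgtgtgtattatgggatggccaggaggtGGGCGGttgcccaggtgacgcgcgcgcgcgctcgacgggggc
Mbd3, chr10:80235398-80235615, - strand: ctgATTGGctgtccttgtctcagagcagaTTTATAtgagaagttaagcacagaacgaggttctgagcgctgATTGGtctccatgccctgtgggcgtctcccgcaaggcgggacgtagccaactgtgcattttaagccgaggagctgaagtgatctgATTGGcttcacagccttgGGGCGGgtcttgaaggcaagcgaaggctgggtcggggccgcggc
The 250 bases of Chd4 held 12 CpG, 2 GC boxes, 0 CCAAT and 0 TATAAA. The 218 bases of Mbd3 held 12 CpG, 1 GC box, 3 CCAAT and 1 TATAAA. Among 32851 promoter windows of 250 bases in the table, the median was 6 CpG, and 32.7% held GGGCGG, 33.8% CCAAT and 12.4% TATAAA. The GC box is the motif found in both windows, and it is not particular to them. The other Chd4 entry held 23 CpG, 3 GC boxes, 1 CCAAT and 0 TATAAA, so CCAAT was shared with Mbd3 there too. Chd6, Chd8 and Chd9 also had entries, with 19 CpG for Chd6, 20 for Chd8, and 16 and 1 for the 2 entries of Chd9. In the same order these entries held 1, 3, 1 and 0 GC boxes, and 3, 1, 0 and 0 CCAAT. Matches of letters are a description and say nothing of which factors bind.

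The other subunits of NuRD and ChAHP were read from a list of 15 genes, of which 14 were listed and 13 tested. Of the 13, limma called 2 as higher, Hdac2 and Mta1, beside 5.95% of all tested genes, and none as lower, and the median log2 fold change was 0.09 beside 0.14 for all tested genes. Both SN values were above both NSN values for 8 of the 13 and below for 2 (Hdac1 and Mta3), against 44.8% and 17.8% of all tested genes. After median scaling the list's median became -0.06 and its limma calls were lost. By voom on read pairs with median scaling, Hdac2 and Mta1 were called as higher and Hdac1 as lower. That fit called 753 of its 11659 tested genes as higher and 969 as lower. Hdac2, a deacetylase of the complex, had 8.37 and 8.63 FPKM in NSN and 13.6 and 12.3 in SN libraries (log2 fold change 0.58, standard error 0.11, limma adjusted p = 0.0393). Its paralogue Hdac1 lay the other way, at 4.51 and 5.10 FPKM in NSN and 3.54 and 3.14 in SN, with a log2 fold change of -0.47 that did not pass (limma adjusted p = 0.0804). The values of neither gene overlapped between the groups. Under median scaling the log2 fold changes were 0.44 for Hdac2 and -0.60 for Hdac1, with limma adjusted p of 0.0667 and 0.0604.

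The MTA proteins are the scaffold to which the deacetylases bind, and the 3 genes differed from each other. Mta1 had 2.31 and 2.15 FPKM in NSN and 3.62 and 3.79 in SN (log2 fold change 0.62, standard error 0.14, limma adjusted p = 0.0466). Mta3 was the most abundant, with 9.71 and 11.2 FPKM in NSN and 8.98 and 9.50 in SN (log2 fold change -0.17, adjusted p = 0.369). Mta2 did not pass the filter, and its FPKM was 0.550 and 0.338 in NSN and 0.206 and 0.0177 in SN, the last from 1 read pair. The limma calls of Hdac2 and Mta1 did not survive median scaling (Mta1 0.49, adjusted p = 0.0845), while voom with median scaling called both. Mta1 lost its limma call with any 1 of the 4 libraries left out, at log2 fold changes of 0.58 to 0.67. For Hdac2 the adjusted p ran from 0.0287 to 0.119 in those fits.

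The histone chaperone subunit Rbbp7 exceeded every other gene of the list, at 2516 and 2593 FPKM in NSN and 2727 and 2711 in SN, above 99.88% of the listed genes. Its paralogue Rbbp4 had 7.42 and 7.23 FPKM in NSN and 7.66 and 7.16 in SN. Neither passed the test, with log2 fold changes of 0.09 and 0.01 (limma adjusted p = 0.376 and 0.943). The bridging subunits Gatad2a and Gatad2b, at 15.2 and 9.50 FPKM over all libraries, had log2 fold changes of 0.08 and 0.12 (adjusted p = 0.568 and 0.484). Cdk2ap1 was at 0.01 (adjusted p = 0.985). Of the HP1 genes, whose proteins join ChAHP, Cbx5 had a log2 fold change of 0.40, Cbx1 of 0.22 and Cbx3 of -0.11, and none passed (limma adjusted p = 0.0817, 0.222 and 0.736). Adnp was not analysed here.

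**Figure D3:**
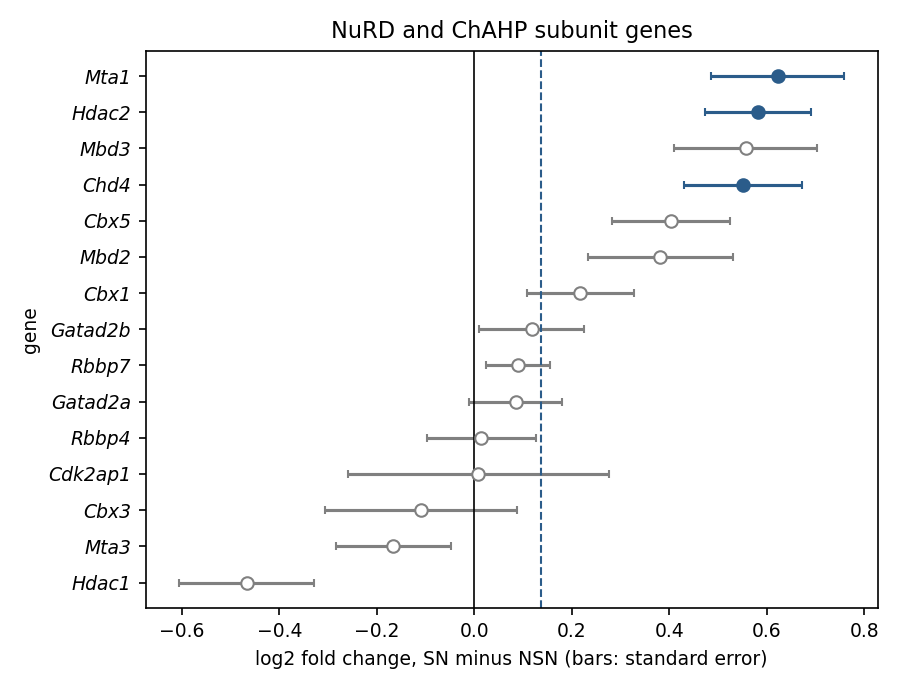
The log2 fold change of SN against NSN (x axis, with its standard error) of Chd4, Mbd3 and the 13 other tested NuRD and ChAHP subunits, ordered by value. Filled blue points are the called genes Mta1, Hdac2 and Chd4, the dashed line is the median of all tested genes, 0.14, and Hdac1 is lowest at -0.47.

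Chd1 and Chd2 bind elongating chromatin, Chd1 through the H3K4me3 mark. Chd1 (ENSMUSG00000023852.16, chr17:15925164-15992874, + strand) had 0.717 and 0.710 FPKM in NSN libraries and 1.03 and 1.08 in SN libraries, on 105, 107, 148 and 164 read pairs. The SN values were higher without overlap, with means of 0.714 ± 0.00484 (SD, n = 2) and 1.06 ± 0.0371 (SD, n = 2), a ratio of 1.48. On the log2(FPKM + 0.5) scale the difference was 0.36 (standard error 0.17), short of the threshold (limma adjusted p = 0.195). By voom on read pairs it was 0.56 and passed (adjusted p = 0.0473). By voom with median scaling it was 0.41 and did not pass (adjusted p = 0.149). The pseudocount of 0.5 FPKM is large beside the level of this gene.

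Chd2 (ENSMUSG00000078671.12, chr7:73076386-73191578, - strand) had 0.152 and 0.240 FPKM in NSN and 0.206 and 0.251 in SN, on 24, 39, 32 and 41 read pairs. The groups overlapped, and all 4 exact Poisson 95% intervals did so too (0.0972 to 0.226, 0.170 to 0.328, 0.141 to 0.291 and 0.180 to 0.340 FPKM). No difference was detectable at this depth. Chaserr, the noncoding gene next to Chd2 that is known to restrain it in cis, was not analysed here. Chd1 per Chd2 was 4.73 and 2.96 in NSN and 4.996 and 4.32 in SN, which overlapped.

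FACT, the histone chaperone that travels with the polymerase, and the PAF1 complex, a partner of Chd1, were read from a list of 8 genes. Of these 7 were tested. All 7 had both SN values above both NSN values, against 44.8% of all tested genes, and limma called 3 as higher (Supt16, Paf1 and Leo1), beside 5.95% of all tested genes. The median log2 fold change was 0.44, beside 0.14 for all tested genes, and 0.30 after median scaling, when no limma call was left. Voom with median scaling called Supt16 and Cdc73 as higher, beside 753 of its 11659 tested genes. Supt16, the large FACT subunit, had 18.2 and 22.8 FPKM in NSN and 32.4 and 30.5 in SN (log2 fold change 0.62, standard error 0.13, limma adjusted p = 0.0438). Paf1 and Leo1, at 21.9 and 40.4 FPKM in NSN means and 30.0 and 55.4 in SN means, had log2 fold changes of 0.44 and 0.45 (adjusted p = 0.0424 and 0.0397). The other 4 (Ssrp1, Ctr9, Cdc73 and Rtf1) had log2 fold changes of 0.29 to 0.57 and did not pass. Wdr61 was not analysed here.

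Chd6, Chd7, Chd8 and Chd9 share a long C-terminal part beyond the ATPase, and mutations of CHD7 and CHD8 are known from human developmental disorders. Chd6 (ENSMUSG00000057133.16, chr2:160788888-160951119, - strand) had 2.96 and 3.61 FPKM in NSN and 4.91 and 4.56 in SN, from 541, 680, 881 and 863 read pairs. SN exceeded NSN without overlap, by a ratio of 1.44 of the means 3.28 ± 0.463 (SD, n = 2) and 4.73 ± 0.246 (SD, n = 2). At a log2 fold change of 0.47 (standard error 0.15), Chd6 was not called (limma adjusted p = 0.0855). By voom it was 0.53 and passed (adjusted p = 0.00962), as it did by voom with median scaling (0.38, adjusted p = 0.0455).

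Chd7 (ENSMUSG00000041235.14, chr4:8690406-8868738, + strand) had 3.38 and 3.96 FPKM in NSN and 4.83 and 4.33 in SN, from 609, 735, 855 and 808 read pairs. The groups were apart, but by less than for Chd6, with means of 3.67 ± 0.413 (SD, n = 2) and 4.58 ± 0.355 (SD, n = 2). Chd7 did not pass at 0.29 on the log2 scale (standard error 0.14, limma adjusted p = 0.212), nor by voom (0.32, adjusted p = 0.0784). It was 0.15 after median scaling, 0.13 after quantile normalization and 0.19 without NSN replicate 1. Chd8 (ENSMUSG00000053754.16, chr14:52435550-52495267, - strand) had 1.46 and 1.65 FPKM in NSN and 2.10 and 2.48 in SN, from 217, 252, 305 and 380 read pairs. Again both SN values were the higher, with means of 1.56 ± 0.133 (SD, n = 2) and 2.29 ± 0.270 (SD, n = 2), and a log2 fold change of 0.44 (standard error 0.16) that did not pass (limma adjusted p = 0.122). By voom it passed at 0.55 (adjusted p = 0.0219), but not by voom with median scaling (0.40, adjusted p = 0.0895). Chd8 per Chd7 was 0.434 and 0.418 in NSN and 0.434 and 0.573 in SN. SN replicate 2 alone stood away from the rest, and the log2 difference of 0.23 fell to 0.03 without it.

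Chd9 was the tested member whose SN values did not lie above the NSN values. The gene (ENSMUSG00000056608.16, chr8:91554934-91781527, + strand) had 3.08 and 3.36 FPKM in NSN and 3.27 and 2.73 in SN, from 646, 725, 673 and 593 read pairs. The groups overlapped, with means of 3.22 ± 0.198 (SD, n = 2) and 3.00 ± 0.380 (SD, n = 2). On the log2 scale the difference was -0.09 (standard error 0.15, limma adjusted p = 0.710), and 0.02 without SN replicate 2. Relative to the median of all genes it was -0.23. After median scaling both SN values lay below both NSN values, as they then did for 30.1% of all tested genes. The log2 fold change of Chd9 was then -0.22 and did not pass (limma adjusted p = 0.346).

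Chd9 per Chd6, a ratio within a library that no scaling of the library can move, set the 2 genes apart most clearly. It was 1.04 and 0.930 in NSN and 0.666 and 0.599 in SN libraries. The exact 95% counting intervals of the 2 NSN libraries (0.928 to 1.17 and 0.836 to 1.03) lay above those of the 2 SN libraries (0.602 to 0.737 and 0.539 to 0.666). The mean log2 ratio was 0.64 lower in SN, and it was between -0.72 and -0.56 with each library left out in turn. The exact permutation test over the libraries gave p = 0.333, the smallest that 2 against 2 can give, and 0.555 after Benjamini-Hochberg adjustment over the 5 ratios computed. The same exact test gave p = 0.333 for Chd4 per Chd3 and for Chd8 per Chd7, and p = 0.667 for Mbd3 per Mbd2 and Chd1 per Chd2. Read pairs after PCR are not independent molecules, so the intervals hold for counting error alone.

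**Figure D4:**
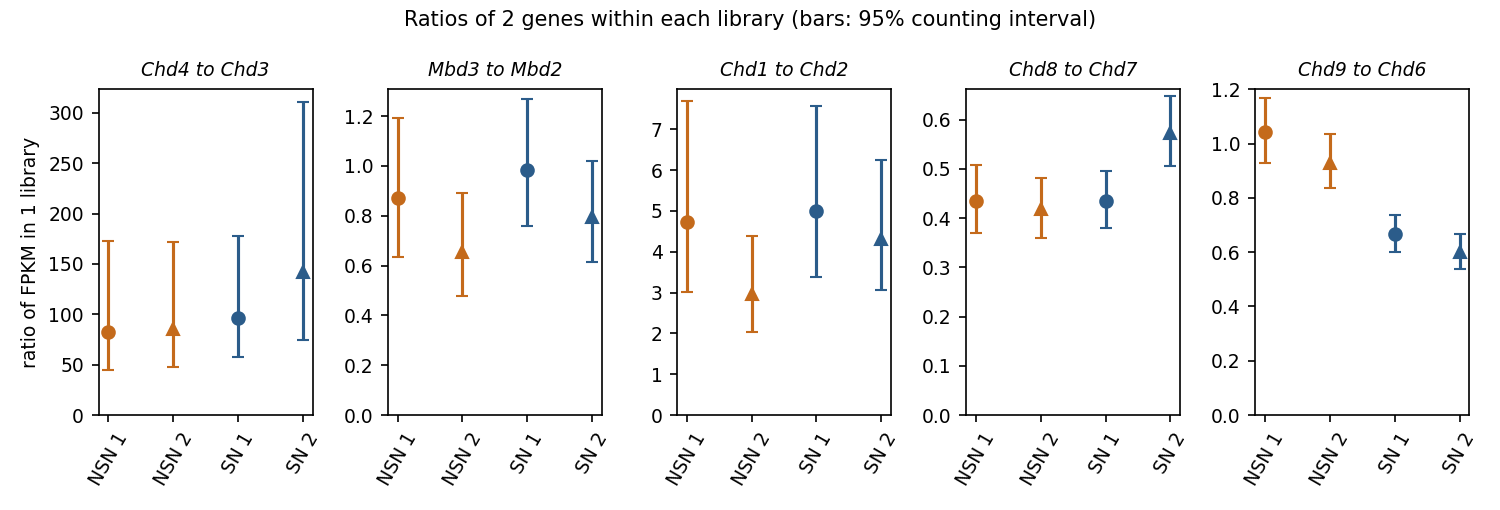
Within-library FPKM ratios of 5 gene pairs, each on its own linear axis from 0, with 1 point per library (2 NSN, 2 SN) and bars for the exact 95% counting interval. Chd9 per Chd6 lies at 1.04 and 0.930 in NSN and at 0.666 and 0.599 in SN with intervals apart, and for each other pair some interval of NSN overlaps with one of SN.

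The summed FPKM of the 8 Chd genes was 18.4 and 20.9 in NSN and 27.4 and 25.3 in SN libraries. SN was higher in both libraries, with means of 19.6 ± 1.76 (SD, n = 2) and 26.3 ± 1.499 (SD, n = 2), a ratio of 1.34 and a log2 difference of 0.43, which was 0.27 after median scaling. The exact permutation p was again the smallest possible, 0.333. Chd4 was the largest part of the sum, at 35.6% and 34.7% in NSN and 39.9% and 38.6% in SN. Without Chd4 the sum was 11.8 and 13.6 in NSN and 16.5 and 15.5 in SN, a log2 difference of 0.33. The part of Chd9 was 16.8% and 16.1% in NSN and 11.9% and 10.8% in SN. That of Chd6 was 16.1% and 17.3% in NSN and 17.93% and 18.05% in SN. Chd7 made up 18.4% and 19.0% in NSN and 17.65% and 17.15% in SN. The parts of Chd8 and Chd1 were 7.67% to 9.82% and 3.41% to 4.29% over the 4 libraries, and both overlapped between the groups.

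The recovered length was 6718 to 12056 bases for the 6 tested Chd genes and 1870 for Mbd3. Over all tested genes, cut into 5 bins from the shortest to the longest, the median log2 fold changes were 0.18, 0.10, 0.07, 0.11 and 0.23. The 6 Chd genes lay in the last bin (4809 bases or more) and Mbd3 in the second (1206 to 2123 bases). A correction for length brought the median of all genes from 0.14 to 0.01. Relative to that median, the log2 fold change of Chd4 was 0.41 before and 0.32 after it, and that of Mbd3 0.42 and 0.49. The corrected values were 0.33 for Chd4, 0.21 for Chd6, 0.19 for Chd8, 0.11 for Chd1, 0.02 for Chd7, -0.36 for Chd9 and 0.50 for Mbd3, and none was called. The part of length in the members' values was not tested further.

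Other families were read for comparison. Of 21 other Snf2 ATPases 18 were tested, 4 were called higher, beside 5.95% of all tested genes, and none lower. Both SN values were above both NSN values for 16 of the 18 and below for 2, against 44.8% and 17.8% of all tested genes. The median log2 fold change of the 18 was 0.26, beside 0.14 for all tested genes, and 0.13 after median scaling. The largest was Smarca5, the ISWI motor, at 5.01 and 6.42 FPKM in NSN and 12.01 and 10.7 in SN (log2 fold change 0.94, standard error 0.15, limma adjusted p = 0.0364). It was the 1 limma call of these lists that median scaling left (0.80, adjusted p = 0.0476). Of the Snf2 ATPases, voom with median scaling called Smarca5, Smarcad1 and Shprh as higher, beside 753 of its 11659 tested genes. Without NSN replicate 1, SN replicate 1 or SN replicate 2 these lists held no call, and the adjusted p of Smarca5 ran from 0.00929 to 0.0887 with a library left out. Smarcad1, Shprh and Ercc6l were called at log2 fold changes of 0.56, 0.57 and 0.44 (limma adjusted p = 0.0473, 0.0487 and 0.0457). The most abundant others, Smarca2, Smarcal1, Atrx and Hells, had log2 fold changes of 0.24, -0.10, 0.44 and 0.25 and did not pass (adjusted p = 0.125, 0.430, 0.0625 and 0.149). Chd1l, an ATPase with a macrodomain but no chromodomain, had 4.72 and 3.86 FPKM in NSN and 5.02 and 3.75 in SN, which overlapped (log2 fold change 0.02, adjusted p = 0.944).

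Among 10 other genes with a methyl-CpG-binding domain, 9 were tested, with a median log2 fold change of 0.22, and 0.09 after median scaling. For 5 of the 9 both SN values were above both NSN values, and for 2 below, against 44.8% and 17.8% of all tested genes. limma called 1 as higher, beside 5.95% of all tested genes. It was Setdb1, an H3K9 methyltransferase, at 21.2 and 23.3 FPKM in NSN and 33.8 and 30.6 in SN (log2 fold change 0.52, standard error 0.10, adjusted p = 0.0413). After median scaling its log2 fold change was 0.37 and it did not pass by limma (adjusted p = 0.0705). Voom with median scaling called Setdb1 as higher and Baz2b as lower, beside 753 higher and 969 lower of its 11659 tested genes. On the deposited FPKM the Setdb2, Baz2b and Mbd4 genes had log2 fold changes of -0.20, -0.18 and 0.22 and did not pass (limma adjusted p = 0.346, 0.354 and 0.340).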

How the data were processed

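The members, the other gene lists and the tests were chosen with earlier results of these data known. RNA from 15 oocytes per library was amplified from oligo(dT)-primed cDNA. The authors trimmed reads with Trim Galore 0.6.10, mapped them with HISAT2 to GRCm39, counted read pairs on exons with featureCounts without strand, and deposited FPKM computed by their own script. They also used DESeq2 on counts that were not used here. The submitters' notes name these tools and the build. Here, library totals were recovered from 5 mitochondrial tRNA genes of known length, and from them whole read pairs for 16840 of 16861 genes (99.88%), which hold 98.1% to 98.2% of each total.

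The test was limma 3.58.1 in R 4.3.3 on log2(FPKM + 0.5), with a variance trend and two-sided p-values, for genes whose mean FPKM reached 0.5. Calls required a fold of 1.2 or more and an adjusted p below 0.05. Ratios and sums were tested by exact permutation, with scipy 1.17.1, numpy 2.4.6 and pandas 2.3.3 in Python 3.11.15, and plotted with matplotlib 3.10.9. Positions and exons came from GENCODE vM39, a later release than that of the authors. Named genes were all members, Chd5, Chd1l and Chaserr, all NuRD and ChAHP subunits, and, of each other list, the called genes with up to 4 of the most abundant others. Of the cell type markers only summaries and some single genes are given.

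Alternatives were pseudocounts of 0.1 and 1, other filters on low values, median scaling, quantile normalization, loess corrections for length and GC content (span 0.3), a constant variance prior, a block on the replicate number, voom on the recovered read pairs, other thresholds, and each library left out. On 5 simulated data sets of 11672 genes with 200 changed and a dispersion of 0.01, the procedure recovered 11.9%, 70.1% and 93.9% of changes of 1.5, 2 and 3 fold at the median, and 9.73% of its calls were wrong.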

Additional observations from a re-analysis of the deposited data

How the results depend on the processing

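On the deposited FPKM, 1 member, 926 genes and 10 genes of the other lists were called. By limma, no member was called after median scaling (257 genes, 78 of them higher, and 1 list gene) or quantile normalization (230 genes, 74 higher, and 1). The same held for the replicate block (422 genes, 266 higher, and 1) and GC correction (350 genes, 142 higher, and 1). With length correction there were 0 members, 139 genes, of which 44 higher, and 0 list genes. Nothing was called with all listed genes, with no variance trend or with length correction and replicate block, all by limma (0 members, 0 genes, 0 list genes), where 4092, 3449 and 2805 genes had an unadjusted p under 0.05. Requiring a mean of 5 FPKM gave 1496 genes. Voom gave 4 members, 2314 genes and 16 list genes, and voom with median scaling 2 members, 1722 genes (753 higher) and 10 list genes. An adjusted p under 0.1 gave 3 members and 2370 genes.

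With each library left out, 0 to 1 members, 0 to 1685 genes and 0 to 10 list genes were called. The genes numbered 0 without NSN replicate 1 (2278 at an unadjusted p under 0.05), 1685 without NSN replicate 2, 148 without SN replicate 1 and 11 without SN replicate 2. A lone library was there assumed to vary like the others. The log2 fold change of Chd9 turned to 0.021 without SN replicate 2 (range -0.20 to 0.021) and the log2 difference of Chd1 per Chd2 to -0.025 without NSN replicate 2 (range -0.025 to 0.65). The causes were not tested. The labels do not say whether libraries of equal replicate number share animals or a batch. The replicate differences of NSN and SN had a correlation of -0.07 across 11672 genes, which cannot settle this. With the replicate block the adjusted p of Chd4 was 0.0723, and no other member changed its call. Depth limits Chd2 and Chd3. With 2 libraries a group, changes near 1.5 fold were seldom recovered in simulation. The simulation changed fewer genes than were called on the deposited FPKM, and its dispersion was assumed. Its recovery rate therefore cannot be carried over to the members.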
